A study of Mus musculus with 192 samples.

Results

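Genes that are commonly read as markers of alternative activation were followed across 64 conditions of mouse bone marrow-derived dendritic cells. The members were the rows of the deposited count table named Mrc1, Retnla, Mgl2, Cd209a and Clec10a, together with Chi3l3, the older symbol of Chil3, so 6 of the 23481 genes in the table. The cells were grown from the marrow of female C57BL/6J mice aged 6 to 8 weeks in medium with 15 ng/mL GM-CSF, and 100000 cells per well were left for 6 hours without ligand (Ctrl) or with 1, 2 or 3 of 7 ligands of pattern recognition receptors. The ligands were PAM, LPS, HMW, depleted zymosan (Zymosan below), SeV, 3',3'-cGAMP (cGAMP) and CpGB; doses are not given in the sources used here. They made 7 single-ligand groups, 21 pairs, 35 triplets and Ctrl, each with 3 libraries, 192 in all, and every group carried the same GM-CSF culture and C57BL/6J background. No label says that the 3 libraries of a group came from separate cultures or mice, so the p-values measure the spread between these libraries, which may be technical.

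Alternative activation is the state that macrophages and dendritic cells take on under interleukin 4 or interleukin 13, which signal through the receptor chain Il4ra and the transcription factor Stat6. Its marker genes fall into classes by role. Mrc1 (the mannose receptor CD206), Mgl2 and Clec10a (the galactose-type lectins CD301b and CD301a) and Cd209a (a mouse relative of DC-SIGN) are C-type lectin receptors that bind sugars on microbes and glycoproteins, whereas Retnla (RELM-alpha, also called FIZZ1) and Chil3 (Ym1, a chitinase-like protein without enzyme activity) are secreted. GM-CSF cultures of mouse marrow are known to hold both dendritic cells and macrophages, and Mrc1 and Chil3 are among the genes that such cells transcribe without added interleukin 4.

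Most of the 6 genes were too sparse for a test. Chi3l3 had 68314 counts over all libraries (median 348.5 per library) and Mrc1 had 3354 (median 16), and these were the 2 members among the 4720 genes that passed the filter on low counts. Retnla had 326 counts in 153 libraries, Mgl2 300 counts in 143 libraries, Clec10a 54 counts in 46 libraries and Cd209a 3 counts in all. Library totals ran from 46564 to 610234 counts with a median of 171616.5, and the Ctrl libraries were among the shallow ones at 73431 ± 14389 (SD, n = 3). Levels below are in CPM, counts per 1000000 counts of a library, on library sizes scaled by edgeR's TMM factors, given as mean ± SD with n = 3 unless stated. Intervals and limits on pooled counts cover counting error only.

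The sequences just upstream of 3 members are shown because they are where Stat6 and the factors downstream of pattern recognition receptors would be looked for. Each run covers 250 bases before to 50 bases after the RefSeq start site on GRCm38.p6, read 5′ to 3′ on the gene's own strand, and the capitals mark matches to the motifs named after them. Mrc1, chr2:14229164-14229463, plus strand, and Chil3, chr3:106167515-106167814, minus strand, belong to the 2 members with testable counts. Retnla, chr16:48842359-48842658, plus strand, is the member with a match to the Stat6 pattern.
Mrc1: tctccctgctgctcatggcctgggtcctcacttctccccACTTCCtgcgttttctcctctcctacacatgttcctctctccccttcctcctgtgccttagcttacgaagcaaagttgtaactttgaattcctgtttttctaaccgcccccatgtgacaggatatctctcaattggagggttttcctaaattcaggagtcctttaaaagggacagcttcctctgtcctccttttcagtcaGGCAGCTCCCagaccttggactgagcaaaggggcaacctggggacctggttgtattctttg
Chil3: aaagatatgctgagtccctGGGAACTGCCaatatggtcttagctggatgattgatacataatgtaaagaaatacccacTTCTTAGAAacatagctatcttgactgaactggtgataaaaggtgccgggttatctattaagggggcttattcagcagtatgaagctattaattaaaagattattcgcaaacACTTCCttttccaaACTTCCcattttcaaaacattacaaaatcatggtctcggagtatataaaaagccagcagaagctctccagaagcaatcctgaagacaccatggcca
Retnla: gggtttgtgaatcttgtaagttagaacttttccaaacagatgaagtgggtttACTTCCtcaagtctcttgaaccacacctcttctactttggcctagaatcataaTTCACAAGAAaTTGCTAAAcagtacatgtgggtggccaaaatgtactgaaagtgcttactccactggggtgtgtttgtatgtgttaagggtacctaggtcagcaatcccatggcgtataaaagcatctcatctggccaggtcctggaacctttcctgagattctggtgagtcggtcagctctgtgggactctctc

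These patterns were searched on both strands: TTC and GAA with 4 free bases between them (STAT6), TTCNNNGAA (other STAT factors), TTTC repeated after 2 free bases (interferon-stimulated response element), TGANTCA (AP-1), TTGCNNAA (C/EBP), GGAAGT (PU.1) and GGG and CC with 5 free bases between them (NF-kB). In the Retnla window a STAT6 match began 145 bases before the start site (position -145) and a C/EBP match at -134, with a PU.1 match at -198. The Mrc1 window held a PU.1 match at -211 and an NF-kB match at -11. In the Chil3 window the matches were to the other STAT pattern at -172, to PU.1 at -60 and -46 and to NF-kB at -231. Among 32851 windows of the same length, 6.95% held the STAT6 pattern, 8.3% the other STAT pattern, 10.8% C/EBP, 23.8% PU.1 and 50.8% NF-kB, so the PU.1 and NF-kB patterns are frequent by their own letters. Matches are descriptions of these letters, and none of the windows was measured for binding here. Sequences for Mgl2 and Cd209a were searched in the same way: the Mgl2 window held PU.1 and NF-kB matches, and the Cd209a window a PU.1 match. Clec10a was named only.

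Mrc1 fell under 3 of the 7 single ligands. The untreated libraries held 166, 249 and 192 CPM (202.6 ± 42.6), on 52 counts. With PAM the libraries held 52.5, 65.4 and 50.0 CPM, and all 3 lay below every untreated library. The fall with PAM was -1.83 on the log2 scale (SE 0.35, adjusted p = 8.32e-06), which is 3.56-fold. With CpGB the libraries held 48.5, 56.2 and 83.0 CPM and again did not overlap Ctrl. The fall with CpGB was -1.62 (SE 0.34, adjusted p = 5.75e-05). With LPS, bacterial lipopolysaccharide, they held 74.4, 139 and 67.1 CPM, so 1 library stood apart from the other two but still below Ctrl. The fall with LPS was -1.12 (SE 0.32, adjusted p = 0.00322). These adjusted p-values come from quasi-likelihood tests in edgeR, adjusted after Benjamini and Hochberg over the 4720 genes tested, and a call needs an adjusted p under 0.05 and a change of at least 1 on the log2 scale. The same rule called lower 5.89% of all genes tested with PAM, 6.27% with CpGB and 9.6% with LPS. The LPS call was lost without Ctrl replicate 2 (-0.88, adjusted p = 0.0641 in edgeR), without LPS replicate 1 (-0.92, under the fold threshold), without LPS replicate 3 (-0.78, adjusted p = 0.0886), without replicate 3 of every group (-0.90, adjusted p = 0.0925) and with no filter on low counts (-0.87, adjusted p = 0.0812). In RNA of whole wells, fewer cells that transcribe Mrc1 and less Mrc1 RNA per cell cannot be told apart.

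With Zymosan Mrc1 held 101, 83.2 and 121 CPM, below every Ctrl library. Its change of -0.96 (SE 0.32, adjusted p = 0.0364 in edgeR's quasi-likelihood fit) passed on p and missed the fold threshold, in a comparison that called 1.82% of genes lower. It passed both thresholds under RLE scaling (-1.10) and in the fit of Zymosan and Ctrl libraries alone (-1.05). The other three ligands left levels that overlapped Ctrl. HMW gave 188.2 ± 28.2 CPM, SeV 192.0 ± 18.0 and cGAMP, a cyclic dinucleotide that activates STING, 202.0 ± 41.7. The log2 differences were -0.08 (95% interval -0.63 to 0.48) for HMW, -0.07 (-0.64 to 0.50) for SeV and -0.04 (-0.61 to 0.53) for cGAMP. These intervals exclude a fall as large as the fitted values of PAM, LPS or CpGB. Of all genes tested, 0.0212% were called lower with HMW, 5.13% with SeV and 5.91% with cGAMP.

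**Figure D1:**
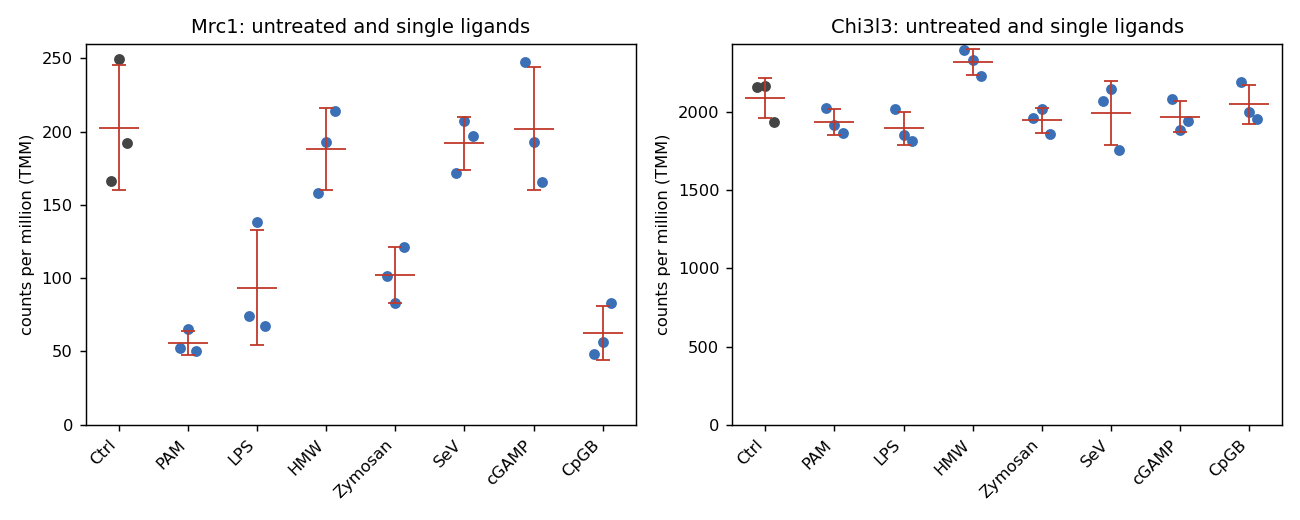
Level of Mrc1 (left) and Chi3l3 (right) in CPM in each of 3 libraries (points) of untreated cells and of cells with 1 ligand; red lines give the mean and SD. Mrc1 lies at or under 139 CPM in every PAM, LPS, Zymosan and CpGB library and at or over 158 CPM in every Ctrl, HMW, SeV and cGAMP library, whereas Chi3l3 stays between 1759 and 2395 CPM throughout.

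Over all 63 stimulated conditions Mrc1 was called lower than Ctrl in 37 and higher in 0, against 9.03% of all gene-by-condition comparisons called lower. In 47 conditions the adjusted p was under 0.05, and the log2 change ran from -2.09 to 0.09 with a median of -1.12. All of these comparisons share the same 3 Ctrl libraries, and the 37 calls fell to 23 without Ctrl replicate 2, to 24 without replicate 2 of every group and to 22 with no filter on low counts. The lowest group mean was 46.7 ± 5.9 CPM with PAM+HMW+CpGB, from libraries of 40.0, 50.9 and 49.2 CPM. PAM+CpGB followed at 55.0 ± 2.8 and PAM alone at 55.9 ± 8.2, whose libraries overlapped both. The PAM+CpGB libraries (51.8 to 57.3 CPM) all lay above those of PAM+HMW+CpGB, but the change on adding HMW to PAM+CpGB, -0.21 (95% interval -1.07 to 0.64), did not pass. The highest mean was 207.8 ± 63.8 CPM with SeV+cGAMP, from libraries of 134, 246 and 243 CPM, and Zymosan+SeV was next at 207.6 ± 44.3. Neither differs from Ctrl beyond its spread.

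The order of the 64 levels followed the ligands in each mixture. The 8 conditions built from HMW, SeV and cGAMP alone, Ctrl included, had means from 168.4 to 207.8 CPM (median 190.1). No condition that held PAM, LPS or CpGB reached the lowest of these. The 33 conditions with 1 of PAM, LPS and CpGB ran from 55.9 to 133.6 CPM (median 90.5), and the 15 with 2 of them from 46.7 to 104.8 CPM (median 79.5). The 1 condition with all of them, PAM+LPS+CpGB, held 99.5 ± 10.8 CPM. Mixtures of Zymosan without PAM, LPS or CpGB ran from 97.3 CPM with HMW+Zymosan to the 207.6 CPM of Zymosan+SeV (7 conditions, median 115.9). This grouping was chosen after the levels were seen and carries no test.

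**Figure D2:**
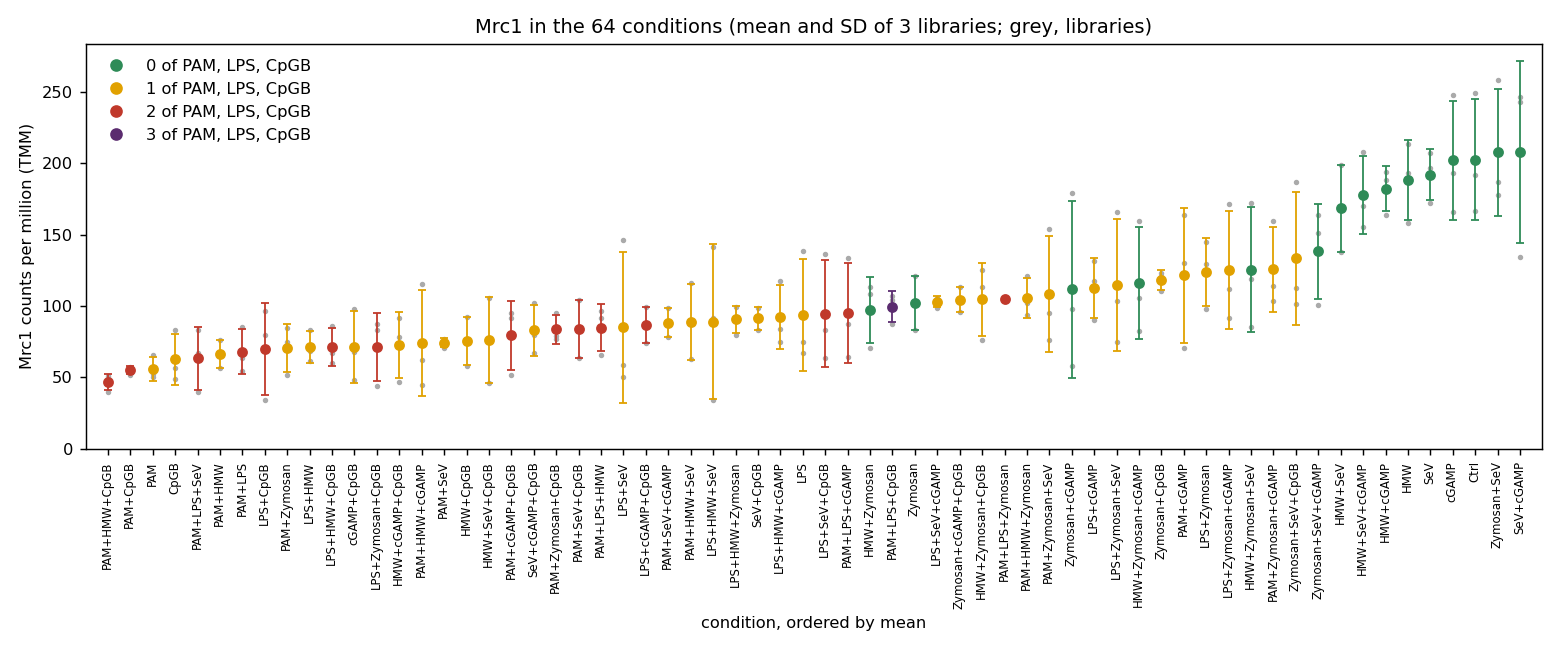
Mrc1 level in CPM (vertical axis) in the 64 conditions, ordered by mean; coloured points and bars give mean and SD of 3 libraries, grey points the libraries, and colours how many of PAM, LPS and CpGB the condition holds. The 9 highest means, from 168 to 208 CPM, all belong to conditions without PAM, LPS and CpGB.

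Averaged over the 22 backgrounds of 0 to 2 other ligands, 3 ligands lowered Mrc1 and 2 raised it. The averaged change was -0.55 with PAM (SE 0.07, adjusted p = 2.51e-12), from 128.9 ± 59.2 CPM in the 66 background libraries to 83.7 ± 27.9 in the 66 libraries with PAM. It was -0.53 with CpGB (SE 0.07, adjusted p = 5.42e-11) and -0.31 with LPS (SE 0.07, adjusted p = 6.23e-05). At an adjusted p under 0.05, edgeR's quasi-likelihood test called 18.7% of all genes lower with PAM, 17.7% with CpGB and 29.3% with LPS. SeV raised Mrc1 by 0.19 (SE 0.07, adjusted p = 0.0264), from 105.5 ± 52.5 to 117.9 ± 53.0 CPM. cGAMP raised it by 0.20 (SE 0.07, adjusted p = 0.00862), from 106.3 ± 54.5 to 116.8 ± 48.9 CPM. Here 20.6% of genes were called higher with SeV and 28.2% with cGAMP, 16.7% and 29.7% lower. These rises depended on the fit: of 10 refits each, SeV passed in 3 and cGAMP in 5. SeV was lost without replicate 1 or 2 and cGAMP without replicate 2 or 3, and neither passed with library size as the only scaling (0.11 and 0.069). HMW (-0.10, 95% interval -0.24 to 0.04, beside 2.1% of genes lower) and Zymosan (0.09, -0.05 to 0.23, beside 21.3% higher and 20.4% lower) did not pass.

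The averaged effects on Mrc1 were also set against each other, in 21 comparisons of 2 ligands over the backgrounds that hold neither. Of these, 16 passed at an adjusted p under 0.05 in edgeR's quasi-likelihood fit, in a family that called 40.4% of all such gene-level comparisons. PAM lowered Mrc1 more than LPS did, by 0.24 on the log2 scale (SE 0.09, adjusted p = 0.0263), and LPS less than CpGB did, by 0.22 (SE 0.09, adjusted p = 0.0463). PAM and CpGB differed by -0.02 (95% interval -0.21 to 0.16) and SeV and cGAMP by -0.02 (-0.18 to 0.15). The difference between LPS and CpGB was lost whichever replicate number was left out (0.16 to 0.21), and that between PAM and LPS without replicate 1 (-0.17) or replicate 3 (-0.23). A comparison that misses the threshold does not show that its ligands act alike.

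**Figure D3:**
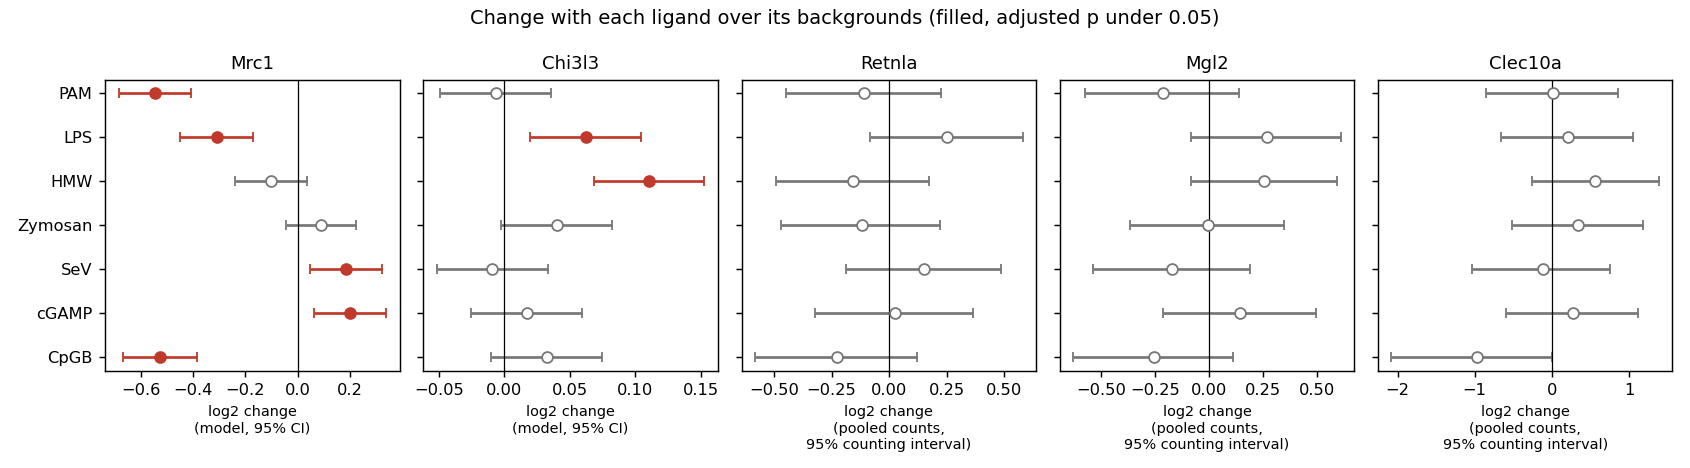
Averaged log2 change of Mrc1 and Chi3l3 with each ligand and its 95% interval (left panels; filled points have an adjusted p under 0.05), and log2 ratio of pooled counts of Retnla, Mgl2 and Clec10a in the libraries with and without each ligand with 95% counting intervals (right panels). Each panel has its own horizontal scale: Mrc1 runs from -0.55 to 0.20 and Chi3l3 from -0.01 to 0.11.

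The changes of Mrc1 were also read background by background. PAM, LPS and CpGB were each added to the 7 backgrounds without PAM, LPS, CpGB and Zymosan, a split chosen after the Mrc1 levels were seen, and in all 7 the change was downward for each of them. The fall was called for CpGB in 7 of the 7 (log2 change -1.62 to -1.08), for PAM in 6 (-1.83 to -0.66) and for LPS in 4 (-1.45 to -0.79). Without Ctrl as a background these were 14 calls; 7 of the 14 were lost on leaving out at least 1 replicate number (CpGB added to SeV, HMW+SeV and SeV+cGAMP, LPS added to SeV and SeV+cGAMP, PAM added to HMW+SeV and HMW+cGAMP), and 3 additions were called lower after thinning to equal totals. In the 15 other backgrounds none of the 3 ligands had a call. The median change in those 15 was -0.24 for PAM, -0.04 for CpGB and 0.06 for LPS. All genes tested split in the same direction: on adding PAM 4.23% of gene-level comparisons were called lower in the 7 backgrounds and 0.479% in the 15, on adding CpGB 3.43% and 0.475%, and on adding LPS 5.03% and 3.2%. The difference between the 7 and the 15 backgrounds was not tested for Mrc1. Over all 22 backgrounds, 1.67% of gene-level comparisons were called lower on adding PAM, 3.78% on adding LPS and 1.42% on adding CpGB. A call here again needs an adjusted p under 0.05 in edgeR's quasi-likelihood fit and a change of at least 1.

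Levels show the contrast between backgrounds. PAM added to SeV+cGAMP took Mrc1 from 207.8 ± 63.8 to 88.4 ± 10.2 CPM, a change of -1.29 (SE 0.27, adjusted p = 9.62e-05 in edgeR's quasi-likelihood fit). PAM added to CpGB took it from 62.6 ± 18.1 to 55.0 ± 2.8 CPM, which overlap. The 1 call upward was for cGAMP added to PAM. The PAM+cGAMP libraries held 70.6, 130 and 164 CPM, all above the 3 PAM libraries. The change was 1.14 (SE 0.35, adjusted p = 0.00804 in edgeR's quasi-likelihood fit). This addition alone called 627 of the 4720 genes tested higher, and over the 22 backgrounds cGAMP called 5.65% of gene-level comparisons higher. The upward call for Mrc1 was lost without replicate 3 (0.77, adjusted p = 0.24 in edgeR). Over the same number of backgrounds the other ligands called higher 2.68% (PAM), 6.09% (LPS), 0.443% (HMW), 2.93% (SeV) and 2.65% (CpGB), and HMW, SeV and cGAMP called lower 0.0462%, 0.948% and 2.78%, with no call for Mrc1.

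Zymosan split by background in direction. In the 15 backgrounds that held PAM, LPS or CpGB, Mrc1 was higher with Zymosan than without it in 15 of 15, with log2 changes from 0.00093 to 0.85 (median 0.44). In the 7 backgrounds without those ligands it was lower in 6 of 7, with changes from -0.96 to 0.0032 (median -0.64). None of the 22 single additions of Zymosan was called at both thresholds, where 2.51% of gene-level comparisons were called higher and 0.897% lower. Adding Zymosan to HMW took Mrc1 from 188.2 ± 28.2 to 97.3 ± 23.1 CPM (log2 change -0.95, adjusted p = 0.00796 in edgeR's quasi-likelihood fit), under the fold threshold. Adding it to CpGB took Mrc1 from 62.6 ± 18.1 to 118.2 ± 6.8 CPM (0.85, adjusted p = 0.104). SeV added to Zymosan brought Mrc1 from 101.9 ± 19.1 to 207.6 ± 44.3 CPM (0.90, adjusted p = 0.0336), so the Zymosan+SeV level overlapped that of untreated cells. The split of backgrounds was chosen after the levels were seen.

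Pair interactions ask whether 2 ligands together differ from the product of their separate changes. For Mrc1, 2 of 21 were called at an adjusted p under 0.05 in edgeR's quasi-likelihood fit, both positive, where 1.08% of all gene-by-pair comparisons were called positive and 3.5% negative. Zymosan+CpGB held 110, 123 and 121 CPM, against 31.5 CPM for the product of the single-ligand changes, and the interaction was 1.81 (SE 0.46, adjusted p = 0.0065). PAM+LPS held 54.7, 85.5 and 63.8 CPM, against 25.8 CPM for the product, and the interaction was 1.41 (SE 0.49, adjusted p = 0.0488). Zymosan+CpGB lost its call without replicate 2 (1.33, adjusted p = 0.29 in edgeR), and PAM+LPS without any 1 of the replicate numbers (1.19 to 1.51), with no filter on low counts (1.23) and in DESeq2 (1.49, adjusted p = 0.0558). Neither passed after thinning to equal totals. Of 9 refits each, Zymosan+CpGB passed in 7 and PAM+LPS in 2. LPS+Zymosan (1.37, adjusted p = 0.0517) and PAM+CpGB (1.58, adjusted p = 0.0567) fell just short. In 8 of the 21 pairs the unadjusted p was under 0.05, and all of these had positive estimates.

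A positive interaction did not place Mrc1 above its untreated level. PAM+LPS (68.0 ± 15.8 CPM) lay between its single ligands, PAM at 55.9 ± 8.2 and LPS at 93.4 ± 39.3. PAM+CpGB (55.0 ± 2.8) lay beside the lower of its own. Zymosan+CpGB (118.2 ± 6.8) was above CpGB alone in every library and overlapped Zymosan alone. Pairs of HMW with SeV, cGAMP or Zymosan had interactions near 0, of -0.12 (95% interval -0.88 to 0.64), -0.03 (-0.78 to 0.71) and 0.01 (-0.83 to 0.85). Of the 35 three-way interactions 0 were called in edgeR's quasi-likelihood fit. For 3 the unadjusted p was under 0.05, all negative, and the lowest adjusted p was 0.0977, for LPS+Zymosan+CpGB at -2.09 (SE 0.67); 0.13% of all such comparisons were called negative and 0.803% positive.

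**Figure D4:**
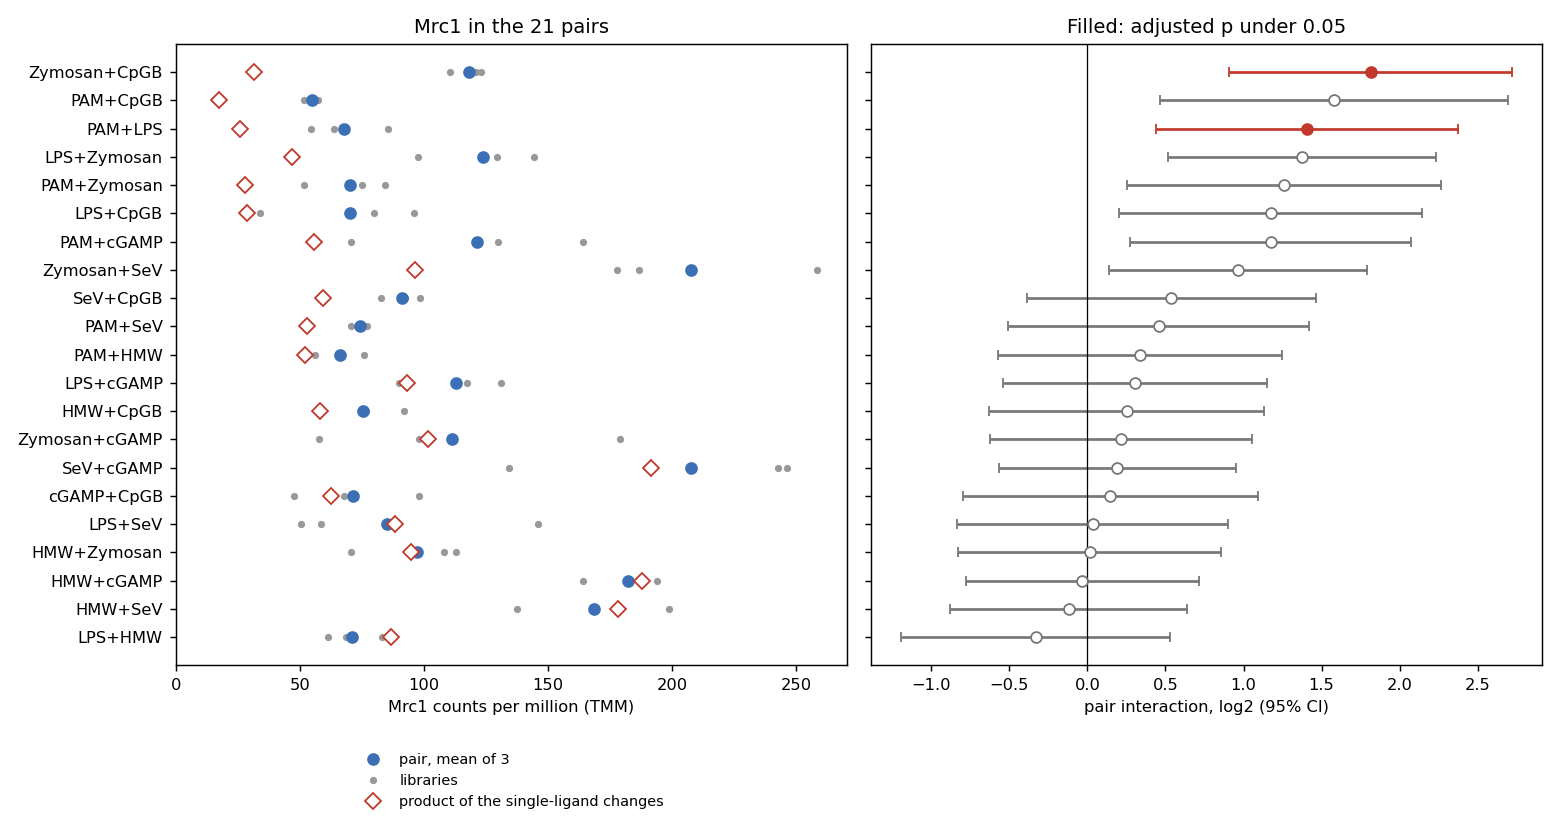
Left, Mrc1 level in CPM in the 21 pairs (blue, mean; grey, 3 libraries) beside the level that the product of the single-ligand changes gives (open diamonds); right, the pair interaction on the log2 scale with its 95% interval, filled where the adjusted p is under 0.05. Of the filled points Zymosan+CpGB is the highest at 1.81 and PAM+LPS stands at 1.41.

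Chi3l3 was present in every library and moved little. Untreated libraries held 2161, 2170 and 1939 CPM (2090 ± 131). The single-ligand means ran from 1897 ± 106 CPM with LPS to 2321 ± 83 with HMW, and all overlapped Ctrl in their libraries except HMW, whose libraries held 2395, 2336 and 2231 CPM, above the untreated ones. Across the 64 conditions the lowest mean was 1878 ± 124 CPM with PAM+SeV and the highest that of HMW, a ratio of 1.24. Of the 63 comparisons with Ctrl, 0 were called in either direction in edgeR's quasi-likelihood fit, and 0 had an unadjusted p under 0.05. These counts depended on the scaling, a comparison made after seeing the data. On the adjusted p alone (under 0.05), Chi3l3 was lower in 7 conditions in DESeq2 and under RLE factors, in 43 with library size alone and in 24 after thinning to equal totals, where the changes reached -0.62, and higher in 4 with no filter on low counts. None of these passed the fold threshold. The interval of the change with PAM, -0.31 to 0.10, excludes the falls fitted for Mrc1 under PAM, LPS and CpGB.

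Averaging over backgrounds resolved small shifts in Chi3l3. HMW raised it by 0.11 on the log2 scale (SE 0.02, adjusted p = 2.04e-05), from 2037 ± 166 to 2197 ± 138 CPM over 66 libraries each, and the sign was upward in 19 of 22 backgrounds. LPS raised it by 0.06 (SE 0.02, adjusted p = 0.00848), from 2059 ± 162 to 2149 ± 179 CPM. By edgeR's quasi-likelihood test 7.94% of all genes were called higher with HMW and 29.6% with LPS. The change with LPS depended on the scaling: it was 0.019 under RLE factors and -0.071 with library size alone. It was also lost without replicate 1 (0.054) or replicate 3 (0.031). The rise with HMW passed in 9 of 10 refits and was lost after thinning every library to 46564 counts (0.031, adjusted p = 0.676 in edgeR). No pair interaction (0 of 21) and no three-way interaction (0 of 35) was called for Chi3l3 in edgeR's quasi-likelihood fit, with 3 and 0 unadjusted p-values under 0.05. Part of the Chi3l3 signal could be split with near copies: 18.5% of the 50-base windows of its transcript also occur in Chil4 and 14.6% in Gm6522. Chil4, deposited as Chi3l4, had 2 counts in all libraries.

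Retnla was at the edge of detection. Ctrl held 5 counts in its 3 libraries, 19.5 CPM with a 95% interval of 6.33 to 45.5. Pooled over the single-ligand libraries the level was 8.82 CPM (5.99 to 12.5), over pairs 11.0 (9.12 to 13.2) and over triplets 9.57 (8.20 to 11.1), so the interval of untreated cells overlapped all of them. Counts per condition ran from 1 to 12. The ratio of pooled counts with and without a ligand lay between 0.854 with CpGB and 1.19 with LPS, and all 7 counting intervals included 1. For LPS, the ligand with the highest ratio, the interval was 0.943 to 1.50. A change as large as the averaged one of Mrc1 lay outside the interval of Retnla with PAM (0.684-fold for Mrc1, 0.732 to 1.17 for Retnla) and within it with CpGB (0.694-fold, 0.667 to 1.09).

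The other lectins gave the same kind of bound. Mgl2 had 1 count in Ctrl and at most 14 in any condition, the latter with LPS+HMW+Zymosan. Its pooled ratios ran from 0.839 with CpGB (0.647 to 1.08) to 1.20 with LPS (0.945 to 1.53), and all 7 intervals included 1. In the untested genes with at least 100 counts, 21.2% had an interval wholly below 1 with LPS and 8.55% wholly above, so intervals that include 1 are common among genes of this depth. Clec10a, the neighbour of Mgl2 on chromosome 11, had 1 count in Ctrl and 0 in every single-ligand group except HMW, which had 2. Its lowest pooled ratio was 0.509 with CpGB (11 counts with and 43 without, 0.236 to 1.003; 0.316 to 0.636 on leaving out 1 replicate number, lowest without replicate 2) and its highest 1.48 with HMW (0.835 to 2.62). Mgl2 and Clec10a share sequence: 10.6% of the 50-base windows of the Clec10a transcript occur in Mgl2 and 15.3% of those of Mgl2 in Clec10a, so reads could be split between them. Cd209a had 3 counts in the whole series, 1 each with LPS+HMW, PAM+LPS+CpGB and PAM+Zymosan+CpGB. Its 0 counts in Ctrl allow a level of up to 11.7 CPM (3 counts in the 3 libraries together).

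The genes most like each tested member were named by the correlation of log2 CPM over the 64 group means, given here as a description because these means share libraries and depth. For Mrc1 they were Fabp5 (r = 0.805), a fatty acid-binding protein, Gadd45g (0.795), a stress-inducible growth arrest gene, and Lgals3 (0.782), the sugar-binding lectin galectin-3. Fabp5 went from 3190 ± 187 CPM in Ctrl to 1473 ± 94 with PAM, 1609.5 ± 105.8 with CpGB and 1522 ± 74 with LPS, and it held 3235 ± 264 with HMW and 3330 ± 344 with cGAMP. Lgals3 went from 4012 ± 164 CPM to 1230 ± 200 with PAM and 1501 ± 115 with CpGB. Gadd45g had 40.5 ± 13.6 CPM in Ctrl and no count in the 3 PAM libraries, which allows up to 5.65 CPM. Averaged over backgrounds Zymosan raised Fabp5 by 0.25 (adjusted p = 1.10e-20) and Lgals3 by 0.51 (adjusted p = 6.10e-51), both in edgeR's quasi-likelihood fit, whereas its averaged change of Mrc1 did not pass. For Chi3l3 the most like gene was Tpt1, a translationally controlled protein, at r = 0.447, and the 2 tested members had an r of -0.06 with each other.

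The wider set was a list of 40 further genes linked to alternative activation, of which 22 could be tested. Against Ctrl, 4 of the 22 were called higher and 4 lower with PAM, 7 and 4 with LPS, 6 and 3 with CpGB, 4 and 0 with Zymosan, 5 and 0 with SeV, 5 and 0 with cGAMP, and 0 and 0 with HMW. Over all genes tested, 8.01% were called higher with PAM, 14.6% with LPS, 10.8% with CpGB, 4.43% with Zymosan, 10.5% with SeV, 11.7% with cGAMP and 0.953% with HMW. The median log2 change of the 22 was 0.56 with Zymosan, beside 0.02 for all genes, and 0.17 with LPS, beside -0.06. With PAM it was -0.0044, beside 0.03, and with CpGB 0.08, beside -0.03. Over all genes tested, 5.89% were called lower with PAM, 9.6% with LPS, 6.27% with CpGB, 1.82% with Zymosan, 5.13% with SeV and 5.91% with cGAMP. Averaged over backgrounds, 11 of the 22 were called higher and 6 lower with PAM, 11 and 6 with LPS, 8 and 6 with CpGB, 12 and 2 with Zymosan, 8 and 2 with SeV, 10 and 7 with cGAMP and 5 and 1 with HMW. The averaged effects called 21.2% of all genes higher and 18.7% lower with PAM, 29.6% and 29.3% with LPS, 19% and 17.7% with CpGB, 21.3% and 20.4% with Zymosan, 20.6% and 16.7% with SeV, 28.2% and 29.7% with cGAMP and 7.94% and 2.1% with HMW.

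Ccl17, a chemokine for Th2 and regulatory T cells, had 1 count in the 3 Ctrl libraries and 93 with PAM, 75 with LPS and 90 with CpGB. Its ratio with PAM was 44.9 with a counting interval of 7.86 to 1792, and the fitted change had an adjusted p of 2.16e-10 in edgeR's quasi-likelihood fit. Slc7a2, a transporter of arginine and other cationic amino acids, went from 147.9 ± 28.3 CPM to 1866 ± 129 with PAM, a log2 change of 3.68 (SE 0.18, adjusted p = 6.41e-50 by the same edgeR test), and to 502.6 ± 62.4 with Zymosan. Ch25h, cholesterol 25-hydroxylase, and Socs1, an inhibitor of cytokine signalling, are also known as targets of interferon. Ch25h had 2 counts in Ctrl and 237 with LPS, a ratio of 56.5 (15.5 to 469), and 73 with SeV. Socs1 was at 14.2 ± 14.4 CPM in Ctrl, at 382.6 ± 66.3 with SeV and at 239.2 ± 22.4 with cGAMP. Kdm6b, a histone H3 lysine 27 demethylase, went from 23.0 ± 9.1 to 90.2 ± 16.8 CPM with Zymosan (1.96, adjusted p = 0.029 in edgeR's quasi-likelihood fit).

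Among the genes of the list that fell against Ctrl, Atp6v0d2, a subunit of the lysosomal proton pump, went from 472.1 ± 111.8 CPM to 98.4 ± 24.6 with PAM (-2.24, adjusted p = 2.68e-14) and to 124.8 ± 43.7 with CpGB (-1.84, adjusted p = 3.60e-11), both in edgeR's quasi-likelihood fit. Egr2, an early growth response transcription factor, went from 81.9 ± 15.9 CPM to 11.2 ± 11.2 with LPS and 24.2 ± 12.8 with CpGB. Retnlg, a relative of Retnla that granulocytes express, had 12 counts in Ctrl and 2 with PAM, a ratio of 0.0805 (0.00875 to 0.361), and 3 with LPS. Averaged over backgrounds Atp6v0d2 was lower with PAM (-0.69) and CpGB (-0.48) and higher with Zymosan (0.85) and cGAMP (0.73), all 4 called in edgeR's quasi-likelihood fit. Genes of the signalling route itself, which were picked out after their values were seen, gave no call in any single-ligand comparison: Il4ra held 59.0 ± 24.8 CPM and Stat6 157.5 ± 69.2 CPM in Ctrl, and Stat6 with LPS was at 85.1 ± 24.3 CPM (-0.89, adjusted p = 0.0282, under the fold threshold). Averaged over backgrounds Stat6 was called lower with PAM (-0.29), LPS (-0.42), CpGB (-0.38), SeV (-0.25) and cGAMP (-0.25), and Il4ra lower with cGAMP (-0.62) and higher with PAM (0.30), LPS (0.32), Zymosan (0.43) and CpGB (0.35).

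**Figure D5:**
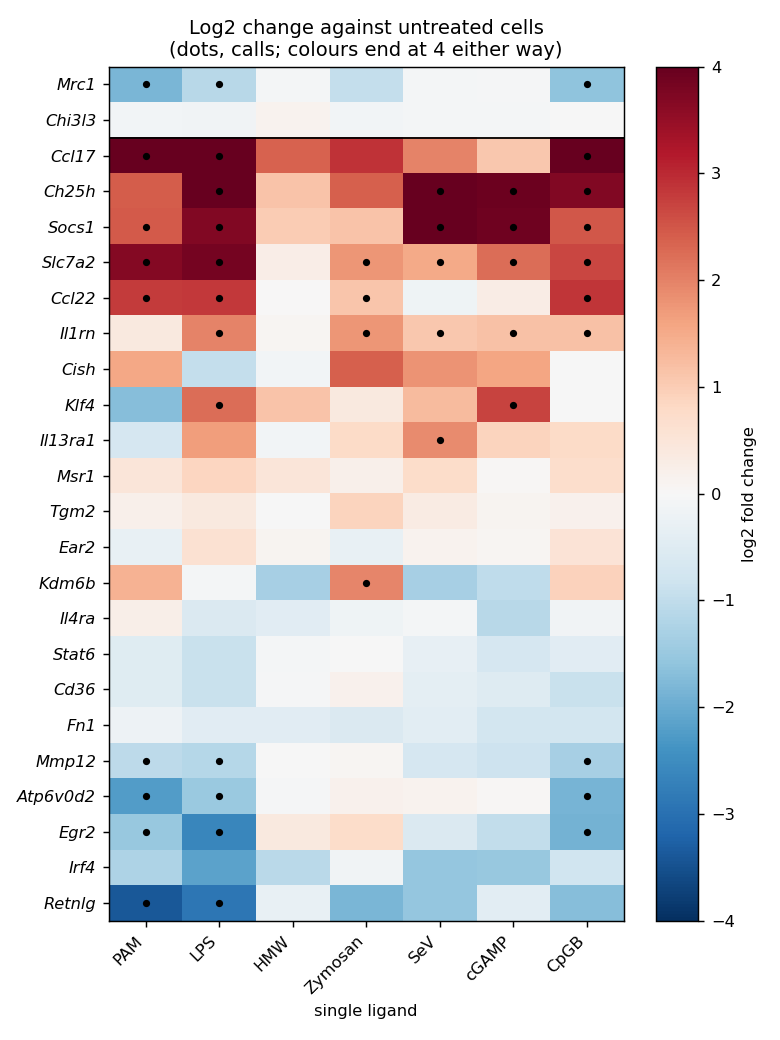
Log2 change against untreated cells (colour, ending at 4 in either direction) of Mrc1, Chi3l3 and the 22 tested genes of the wider list (rows) under each single ligand (columns); dots mark calls. Mrc1 has dots under PAM, LPS and CpGB and Chi3l3 none, and the HMW column holds no dot.

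Markers of the cell types that such cultures can hold moved with some of these results, and their part in them was not tested. The summed level of 12 macrophage markers was 14141 ± 847 CPM in Ctrl, 13522 ± 361 with PAM, 12787 ± 277 with CpGB, 10469 ± 18 with LPS and 10995 ± 142 with cGAMP. It was 11346 ± 92 with Zymosan, 12010 ± 188 with SeV and 13266 ± 688 with HMW. Lyz2 held 9450 ± 728 CPM of the Ctrl sum. Of the 11 macrophage markers tested, 3 were called lower and 2 higher with PAM, 4 and 2 with LPS, 1 and 3 with CpGB, and 1 and 1 with cGAMP. Their median log2 change was -0.75 with PAM, -0.61 with LPS, -0.42 with cGAMP and -0.30 with CpGB. With SeV and Zymosan the medians were -0.46 and -0.40, with 1 marker called lower under each and 1 higher with SeV. Over all genes tested against Ctrl, 5.89% were called lower and 8.01% higher with PAM, 9.6% and 14.6% with LPS, and 6.27% and 10.8% with CpGB. The shares were 5.91% and 11.7% with cGAMP, 5.13% and 10.5% with SeV, and 1.82% and 4.43% with Zymosan. Averaged over backgrounds, 8 of the 11 macrophage markers were called lower and 2 higher with PAM, 7 and 2 with LPS, and 5 and 3 with CpGB. The counts were 5 and 2 with cGAMP, 5 and 1 with Zymosan, 4 and 2 with SeV and 0 and 2 with HMW, beside the averaged shares of all genes given above. The sum of 12 dendritic cell markers was 3004 ± 168 CPM in Ctrl, 3567 ± 115 with PAM, 3627 ± 70 with LPS and 3527 ± 36 with CpGB. It was 3408 ± 96 with Zymosan, 3199 ± 132 with SeV, 3085 ± 140 with cGAMP and 3071 ± 128 with HMW. Averaged over backgrounds, 5 of the 6 dendritic cell markers tested were called higher with PAM and with CpGB, 4 with LPS (and 1 lower), 3 with Zymosan, 2 with HMW, 2 with cGAMP (and 1 lower) and 2 with SeV (and 2 lower). Of all genes, the averaged effects called higher 21.2% with PAM, 19% with CpGB, 29.6% with LPS and 21.3% with Zymosan. The shares were 7.94% with HMW, 28.2% with cGAMP and 20.6% with SeV. The plasmacytoid dendritic cell list had 1 tested marker, Tcf4, which was called higher against Ctrl with LPS (1.88), SeV (1.73) and cGAMP (1.76), and when averaged (0.93, 0.58 and 0.79, and 0.34 with CpGB). With Zymosan it was called lower when averaged (-0.26), and its change of -1.01 against Ctrl was not called. Of all genes, 14.6% were called higher against Ctrl with LPS, 10.5% with SeV and 11.7% with cGAMP, and 20.4% lower with Zymosan when averaged. Of the 12 dendritic cell genes, Itgax (421 ± 37 CPM), H2-Ab1 (1525 ± 191), Cd74 (774 ± 63) and Ccr7 (196 ± 56) were present in Ctrl. So were Cd24a (54.9 ± 45.1) and Xcr1 (21.6 ± 14.6). Flt3, Clec9a and Ciita had 1 count each there. Zbtb46, Dpp4 and Kmo had no count there, which allows up to 11.7 CPM, and neither had the macrophage marker Mertk. Neutrophil markers summed to 825 ± 141 CPM in Ctrl, 972 ± 67 with PAM, 1011 ± 128 with LPS, 827 ± 32 with Zymosan and 835 ± 66 with CpGB. Of the 7 neutrophil markers tested 1, Retnlg, was called lower with PAM and with LPS, beside 5.89% and 9.6% of all genes. The median log2 change of the 7 was 0.23 with PAM, 0.43 with LPS and 0.23 with Zymosan. Averaged over backgrounds, 4 of the 7 were called higher and 1 lower with LPS, 1 and 2 with PAM, 1 and 1 with CpGB, 1 and 0 with cGAMP, 0 and 2 with Zymosan, 0 and 1 with SeV and 0 and 0 with HMW. The averaged shares of all genes beside these counts are those given above. Markers of B cells, of T and NK cells and of erythroid cells had 0 counts in Ctrl.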

How the data were processed

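RNA of 192 wells was reverse transcribed, the cDNA was pooled before amplification, and libraries were tagmented and sequenced, per the labels' protocols. The deposited table holds whole-number counts of unique molecular identifiers per gene, as its name and values show. Alignment used BWA 0.7.15 and the mm10 build, per the submitters' processing notes; the gene annotation and the collapsing of identifiers are not given in the sources used here. Read length is likewise not given, so the 50-base windows used to describe shared transcript sequence are a choice.

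Groups were taken from the sample titles. Genes were filtered by edgeR's filterByExpr with the groups (4720 of 23481 kept, 95.7% of counts), scaled by TMM and fitted over all 192 libraries with 1 coefficient per group by edgeR 4.0.16's quasi-likelihood test in R 4.3.3 (residual df 128), with Benjamini-Hochberg adjustment over all genes tested within each contrast. Comparisons with Ctrl and additions to a background were called at an adjusted p under 0.05 and a log2 change of at least 1, averaged effects and interactions at an adjusted p under 0.05. SEs are the log2 change divided by the root of the F statistic. Members below the filter were summed over the libraries with and without a ligand and compared by the ratio of pooled CPM with a 95% exact counting interval. The fit was tested on simulated data with known changes.

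The text names the members, from the wider list the 2 called genes that rose most and the 2 that fell most under each single ligand (20 CPM or more on average in the ligand group or Ctrl), and the 3 genes with the highest correlation to each tested member. The members and lists were chosen with earlier results of these data known. Same-numbered replicates did not deviate together (median correlations of 0.005 to 0.011 per number), so the numbers were not used as pairs. Alternatives were RLE scaling (DESeq2's size factors within edgeR), library size alone, no filter, DESeq2 1.42.0, thinning to 46564 counts per library, a replicate block, leaving out replicates, fits on each ligand with Ctrl alone, no fold threshold, backgrounds of 1 or 2 ligands and, added after seeing the data, an additive model of the ligands.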

Additional observations from a re-analysis of the deposited data

Results flagged for a closer look

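The interaction of 2 ligands on Mrc1 was called in 2 of 21 pairs, in edgeR's quasi-likelihood fit over 3 libraries per group. Over all genes, 1.08% of gene-by-pair comparisons were called positive and 3.5% negative. Zymosan+CpGB called 55 of the 4720 genes positive and PAM+LPS 164. Both calls for Mrc1 depended on the fit: of 9 refits each, Zymosan+CpGB passed in 7 and PAM+LPS in 2. For Zymosan and CpGB the interaction was 1.81 on the log2 scale (adjusted p = 0.0065): Zymosan took Mrc1 from 202.6 to 101.9 CPM in untreated cells and from 62.6 to 118.2 CPM in cells with CpGB, and all 3 libraries of the pair lay above all 3 with CpGB alone. For PAM and LPS it was 1.41 (adjusted p = 0.0488): LPS took Mrc1 from 202.6 to 93.4 CPM in untreated cells and from 55.9 to 68.0 CPM in cells with PAM, where the libraries overlapped. Both interactions use the same 3 Ctrl libraries, which hold 52 Mrc1 counts together.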

How the results depend on the processing

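Of 1131 values recomputed under the alternatives, 977 kept their direction and their side of the threshold. The falls of Mrc1 with PAM and CpGB against Ctrl and its averaged falls with PAM, LPS and CpGB kept theirs under every alternative run for them. The other calls were less stable, and beyond fewer counts, genes or libraries the cause was not tested. With no filter on low counts Mrc1 with LPS was -0.87 and missed the call, its calls against Ctrl fell from 37 to 22, its pair interactions to 1 and the lower calls of Chi3l3 between ligands to 1. Mrc1 with Zymosan passed in DESeq2 (-1.10), under RLE factors (-1.10), with library size alone (-1.10) and in the fit of ligand and Ctrl libraries alone (-1.05). The averaged rise of Mrc1 with SeV missed the threshold in the additive model (0.078), in DESeq2 (0.16), with library size alone (0.11), under RLE factors (0.16) and after thinning (0.15). That with cGAMP missed it in the additive model (0.087), with library size alone (0.069) and after thinning (0.25). Averaged rises of Mrc1 were thus 0 in the additive model, with library size alone and after thinning, and 1 in DESeq2 and under RLE factors, against 2.

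For Chi3l3 the averaged change with LPS missed the threshold in DESeq2 (0.020) and under RLE factors (0.019), and turned to -0.071 with library size alone and -0.050 after thinning. That with HMW missed it after thinning (0.031). The uncalled change with cGAMP turned from 0.017 to a called -0.12 with library size alone and -0.10 after thinning, and PAM (-0.13 and -0.093) and SeV (-0.082 and -0.13) also passed as falls there. Chi3l3 was thus called higher by 1 ligand in DESeq2, under RLE factors and with library size alone and by 0 after thinning, against 2, and lower by 4 ligands with library size alone and by 3 after thinning, against 0. Between ligands its lower calls were 6 with library size alone and 1 after thinning, and its higher calls 3 after thinning. Its pair interactions called higher were 1 in DESeq2 and 2 with library size alone. Mrc1 had 4 pair interactions under RLE factors and 0 after thinning. With library size alone 0 additions raised it, and after thinning 3 additions, not 14, lowered it and 7 comparisons between ligands were lower, not 11. The median change of all genes against Ctrl moved by -0.16 (median over conditions) in DESeq2 and under RLE factors and by -0.36 with library size alone.

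Leaving out 1 library or 1 replicate number gave -1.44 to -0.78 for Mrc1 with LPS, -1.18 to -0.63 with Zymosan, 0.15 to 0.24 for its averaged change with SeV and 0.17 to 0.24 with cGAMP. Its calls against Ctrl ran from 23 to 41, its averaged rises from 0 to 1, its upward additions from 0 to 2 and its pair interactions from 0 to 1. For Chi3l3 the averaged change ran from 0.031 to 0.089 with LPS, from 0.020 to 0.071 with CpGB and from 0.0013 to 0.074 with Zymosan, its averaged rises from 1 to 3, and its calls between ligands from 0 to 4 lower and 2 to 3 higher. With the replicate number as a block Mrc1 had 37 calls against Ctrl and 3 pair interactions, and the replicate block changed no other call count; the numbers do not pair the samples. DESeq2 was not run for additions and differences between ligands. The additive model was chosen after seeing the data. Depth limits Mrc1 to a median of 16 counts per library, and after thinning 5 pooled ratios of Retnla, Mgl2 and Clec10a left their counting intervals.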

Other observations

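Some genes linked to alternative activation lay below the filter and have no test across libraries, but held at least 100 counts. Those named here were chosen after their values were seen, and their ratios of pooled CPM with and without a ligand carry counting intervals only. Ppargc1b, a transcriptional coactivator of mitochondrial genes, had a ratio of 3.09 with cGAMP (95% interval 2.33 to 4.12) and was higher in 20 of 22 backgrounds. Its ratio was 0.557 with PAM (0.399 to 0.765) and 0.709 with HMW (0.524 to 0.951). Among the 4024 untested genes with at least 100 counts, 9.37% had an interval wholly above 1 with cGAMP. Arg1 had a ratio of 3.48 with Zymosan (2.68 to 4.53), higher in 19 of 22 backgrounds, 0.415 with LPS (0.294 to 0.575) and 0.526 with CpGB (0.382 to 0.713). Myc had 1.59 with Zymosan (1.31 to 1.92) and 0.597 with LPS (0.474 to 0.746), and intervals wholly below 1 with PAM, SeV and cGAMP. Of those 4024 genes, 13% lay wholly above 1 with Zymosan, and 21.2% with LPS and 11.1% with CpGB wholly below.

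Pparg, a nuclear receptor for fatty acids, had ratios of 0.443 with PAM (0.300 to 0.639) and 0.359 with LPS (0.231 to 0.540), and its mean was lower in 18 of 22 backgrounds with either. Its ratio was 0.680 with cGAMP (0.474 to 0.959), 1.41 with CpGB (1.03 to 1.91) and 1.37 with HMW (1.01 to 1.85). By background its mean was higher in 11 and lower in 10 with CpGB, higher in 10 and lower in 12 with HMW, and lower in 15 with cGAMP. Untested genes with intervals wholly above 1 were 8.6% with CpGB and 5.17% with HMW, and 23.3% lay wholly below with cGAMP. Of the same untested genes, 12.3% had an interval wholly below 1 with PAM and 21.2% with LPS. Pdcd1lg2, which encodes the checkpoint ligand PD-L2, stayed between 0.804 with PAM (0.631 to 1.02) and 1.35 with LPS (1.07 to 1.69). None of these ratios takes account of the spread between libraries.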
